A study of Mus musculus with 4 samples.

Results

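The nuclear-encoded respiratory chain genes were examined in wild-type and Npac knockout E14 mouse embryonic stem cells (mESCs), and 97 of the 56748 genes listed in the count table were members. Members were the protein-coding genes whose symbol starts with Nduf followed by a, b, c, s or v, with Uqcr, with Atp5 or with Cox4 to Cox8, together with Sdha to Sdhd. They fell into 46 genes for complex I, 4 for complex II, 8 for complex III, 21 for complex IV and 18 for complex V. The rule also took in 8 complex I assembly factors (Ndufaf1 to Ndufaf8) and 2 copies of other members that the table lists as protein-coding (Ndufb11b and Cox5b-ps). Atp5o is listed in 2 rows, of which 1 had no reads in any library. RNA-seq was performed on 2 libraries of wild-type cells (WT1 and WT2) and on 1 library from each of 2 Npac knockout lines (KO1 and KO2), all of them E14 cells grown without feeders in serum and LIF. The knockout lines were clones picked after CRISPR/Cas9 targeting and puromycin selection, so a clone's own history and the knockout cannot be told apart within a line. Nothing in the labels says that WT1 and WT2 came from separate cultures, so the p-values measure the spread between these 4 samples.

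The respiratory chain sits in the inner mitochondrial membrane. Complexes I and II pass electrons from NADH and succinate to ubiquinone, complex III passes them on to cytochrome c, and complex IV reduces oxygen, while complex V uses the resulting proton gradient to make ATP. Most subunits are encoded in the nucleus and imported, a few are encoded by mitochondrial DNA, and several nuclear subunits have alternative forms made in heart, muscle, testis or lung. Naive mouse ES cells respire actively, whereas primed pluripotent cells rely more on glycolysis.

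The total count lay between 15850805 and 16965120 reads per library. Npac itself, listed as Glyr1, was at 259, 178, 47.9 and 51.3 CPM (TMM-normalized counts scaled by library size; the 4 libraries are given here and below in the order WT1, WT2, KO1, KO2), and its log2 fold change was -2.14 (SE 0.23, adjusted p = 0.00174, edgeR's quasi-likelihood test), so its RNA was lower in the KO libraries but still present. For its knockout clones the paper reported that Npac mRNA was lost by qPCR and that the protein was absent by Western blot. The defining ES cell markers were present in every library, with the 10 markers summing to 7951 and 6213 CPM in the WT libraries and to 5565 and 5110 CPM in the KO libraries. Markers of fibroblasts, neural cells, primitive endoderm and trophoblast summed to at most 59.0, 41.3, 28.7 and 7.01 CPM in any library. Among the fibroblast genes, Col3a1 and Dcn were at 0 in all 4 libraries and Lum had at most 1 read. Col1a1 had 85, 168, 285 and 326 reads and Col1a2 had 3, 5, 18 and 16, while Thy1 had 458, 858, 397 and 534. The summed ES cell markers were lower in both KO libraries. By gene, the KO pair lay below the WT pair for 5 of the 10, with Zfp42 at 945, 697, 134 and 129 CPM, and above it for 2, Dppa5a and Utf1, while Nanog, Fgf4 and L1td1 overlapped. Among the neural genes, Neurog1 had 0, 3, 94 and 137 reads, while Sox1 had 424, 234, 54 and 80 reads. Map2 had 179, 212, 165 and 158 reads, and Pax6 had 28, 21, 26 and 37. Summed, the neural genes stood at 41.3, 26.9, 21.8 and 23.8 CPM. The part of these markers in the values below was not tested. In bulk libraries, fewer cells of a type and less RNA per cell cannot be told apart. WT2 was above WT1 for 82 of the 95 members tested (median log2 difference 0.30), against 50.7% of all genes, and KO2 was above KO1 for 20 members (median -0.10). The members' median gene length was 1550 bases, against 3706 bases over all genes tested, and the part of length in the difference between the WT libraries was not tested.

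The sequences of 3 pairs bear directly on the counts of members, because a processed pseudogene, an intronless copy of a gene's mRNA, can take up reads of its parent. The pairs are printed from GENCODE M21 transcripts on GRCm38, 5′ to 3′, with differing bases in capitals and positions counted from 1 at the A of the start codon. Ndufs5 (chr4:123712710-123718202, minus strand) and Ndufs5-ps (chr16:42955631-42955949, plus strand) differed at 2 of 319 aligned coding bases, T81C and A105G, and coding positions 46 to 165 are shown.
Ndufs5: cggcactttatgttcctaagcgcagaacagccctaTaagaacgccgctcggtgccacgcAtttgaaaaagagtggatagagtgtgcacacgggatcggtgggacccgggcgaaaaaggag
Ndufs5-ps: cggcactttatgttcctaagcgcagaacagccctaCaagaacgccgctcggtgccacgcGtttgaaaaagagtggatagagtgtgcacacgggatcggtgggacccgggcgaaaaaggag
The whole coding sequence of Cox7c (chr13:86044816-86046904, minus strand), 192 bases long, was identical to Gm12338 (chr11:75599763-75599954, minus strand), with 0 mismatches, so a single printing serves both.
Cox7c and Gm12338: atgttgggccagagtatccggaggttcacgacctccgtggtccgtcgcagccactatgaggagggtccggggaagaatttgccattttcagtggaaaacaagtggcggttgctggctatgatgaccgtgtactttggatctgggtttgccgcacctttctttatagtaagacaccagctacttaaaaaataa
Cox7a2l (chr17:83501918-83517330, minus strand) and Gm6969 (chr12:24638669-24639010, minus strand) differed by 2 mismatches and by 6 bases that Gm6969 holds and the annotated gene lacks, T214A and C303T among the former, shown from coding position 178 to 336.
Cox7a2l: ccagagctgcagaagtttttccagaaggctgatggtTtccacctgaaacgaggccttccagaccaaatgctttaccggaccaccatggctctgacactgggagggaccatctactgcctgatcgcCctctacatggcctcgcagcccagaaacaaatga
Gm6969: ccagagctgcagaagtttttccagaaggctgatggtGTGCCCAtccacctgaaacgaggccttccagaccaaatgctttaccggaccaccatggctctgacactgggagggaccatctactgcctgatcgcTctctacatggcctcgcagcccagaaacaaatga
A read that falls between the capitals matches both loci equally, and which locus a read came from cannot be told from the counts.

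Between the WT and Npac KO cells, 9 members rose and 1 fell by edgeR's quasi-likelihood test over 18157 genes, where the limits were 0.05 for the Benjamini-Hochberg adjusted p and 1.5 for the fold change. The share of members that rose was 9.47%, where 11.0% of all genes tested rose. The share that fell was 1.05%, where 10.7% of all genes fell. Those that rose were Ndufs5, Ndufb7 and Ndufaf6 of complex I, Uqcr10 of complex III, Cox7a2, Cox7c and Cox7b2 of complex IV, and Atp5g1 and Atp5g2 of complex V, and the gene that fell was Cox6a2 of complex IV. For 63 of the 95 members tested the 95% interval of the change lay within 2-fold of equality, and for 18 it lay within 1.5-fold. At an unadjusted p under 0.05, 21 members were higher and 9 lower (18.7% and 18.8% of all genes). The KO pair lay wholly above the WT pair for 40 members, or 42.1%, against 33.2% of all genes, and below them for 21 members, or 22.1%, against 32.5%. The median log2 fold change was 0.14 over the members and 0.00 over all genes, and without WT1 the members' median was -0.04. With single libraries left out the counts moved, as did those over all genes. Without WT1 8 members rose and 13 fell (8.42% and 13.7%), where 14.8% and 15.4% of all genes did. Without WT2 27 rose and 2 fell (28.4% and 2.11%), where 19.1% and 18.2% of all genes did. Without KO1, and likewise without KO2, 2 rose and 1 fell (2.11% and 1.05%), where 3.54% and 3.34%, and 3.7% and 3.75%, of all genes did. Ndufs5, Atp5g1 and Cox6a2 passed the test in each of these 4 fits.

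**Figure D1:**
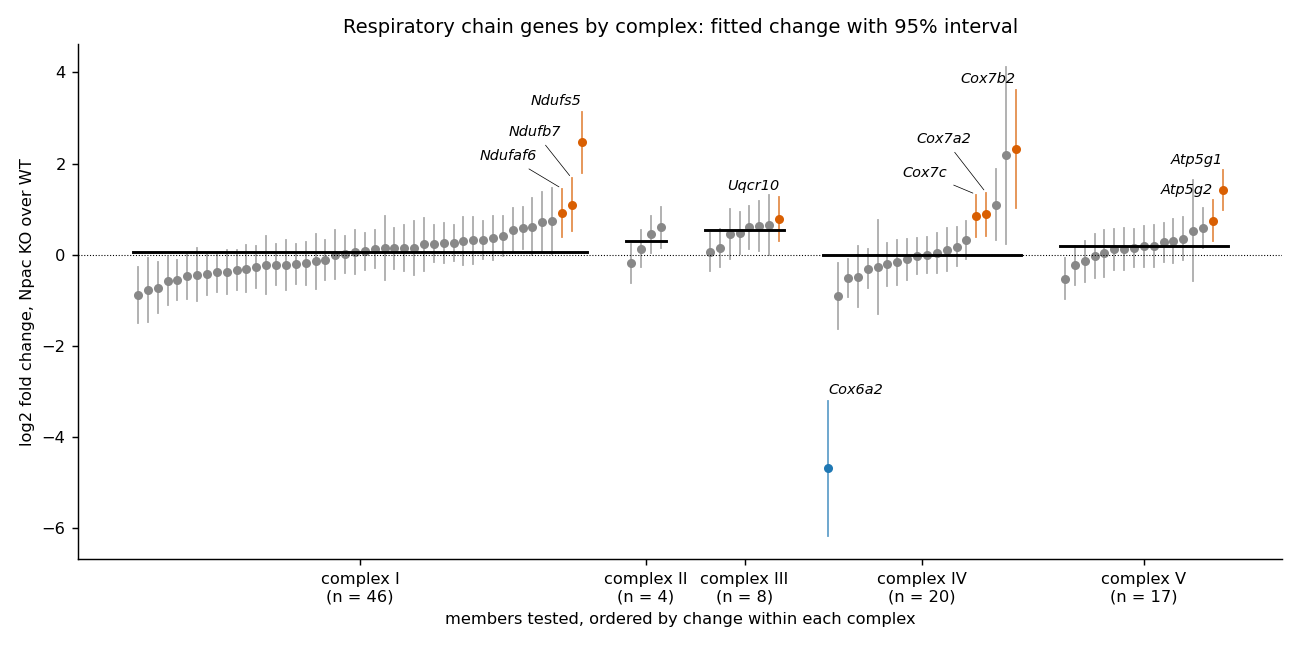
Fitted log2 fold change (Npac KO over WT) of each member tested, ordered within complexes I to V, with its 95% interval as a vertical line and the median of each complex as a black bar. Orange marks the 9 members that rose, blue the 1 that fell and grey those that did not pass both thresholds; the medians run from -0.01 in complex IV to 0.54 in complex III.

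The median log2 fold change was 0.54 in complex III, 0.29 in complex II, 0.19 in complex V, 0.07 in complex I and -0.01 in complex IV. Summed over their levels, the members together took 10956, 12715, 13647 and 12664 CPM, so the KO2 library lay between the WT libraries. Complex III stood at 822, 975, 1301 and 1169 CPM, with a mean 1.37 times that of WT, and the groups did not overlap. Complex II stood at 553, 582, 675 and 647 CPM, a mean 1.17 times that of WT, again without overlap. Complex V stood at 4784, 5349, 6068 and 5615 CPM, a mean 1.15 times that of WT. For complexes I and IV the WT and KO libraries overlapped, with KO means 1.03 and 1.02 times those of WT. Per gene length, complex IV had the highest summed level, at 2421 FPKM averaged over the 4 libraries, followed by complexes V (1881), I (1711), III (767) and II (235).

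**Figure D2:**
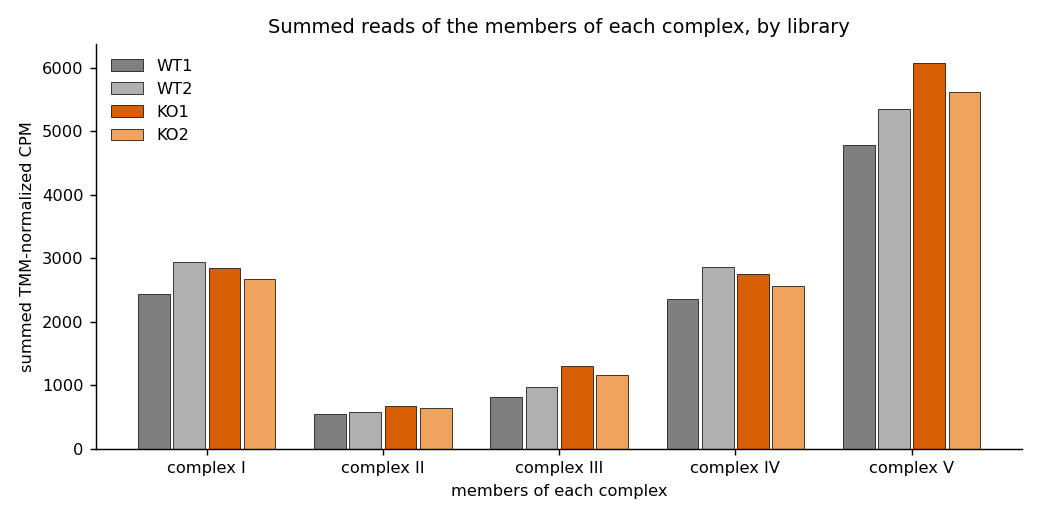
Summed TMM-normalized CPM (vertical axis, from 0) of the members of each complex, with 1 bar for each library. The KO bars stand above the WT bars in complexes II, III and V, and in complexes I and IV the WT2 bar is the tallest.

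Complex I, the NADH dehydrogenase, had 46 members tested, of which 3 rose and 0 fell (6.52% and 0%, against 11.0% and 10.7% of all genes). Its median log2 fold change was 0.07. Among the 7 core subunits, which carry the flavin and iron-sulphur centres, none passed the thresholds and the log2 fold changes ran from -0.34 to 0.41. The 30 supernumerary subunits, which surround the core, spread from -0.77 to 2.47 around a median of 0.00. Among them the KO pair lay wholly above the WT pair for 8 (26.7%) and below it for 10 (33.3%). Over all genes tested these shares were 33.2% and 32.5%. Ndufa7 and Ndufb6, the complex I subunits with the highest FPKM (reads per gene length and depth), averaged 93.5 and 90.4 FPKM over the 4 libraries. Ndufa7 was at 169, 199, 174 and 147 CPM, and Ndufb6 at 49.8, 67.9, 62.3 and 60.5 CPM. Their log2 fold changes were -0.20 (SE 0.19) and 0.06 (SE 0.21), smaller than the difference between the WT libraries.

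Ndufs5, a subunit on the intermembrane side of complex I, had the largest rise among the members. It had 127, 253, 995 and 1080 reads, which is 8.32, 14.5, 64.0 and 62.4 CPM. The log2 fold change was 2.47 (SE 0.29, adjusted p = 0.0023). Its pseudogene Ndufs5-ps went the other way, with 739, 1168, 3 and 1 reads, a log2 fold change of -8.80 (SE 0.45) and a level of 0.209% of WT (exact 95% interval 0.0569% to 0.536%, counting error only). The pseudogene held 85.3% and 82.2% of the reads of the pair in WT1 and WT2, and 0.301% and 0.0925% in KO1 and KO2. Added together, the pair had 866, 1421, 998 and 1081 reads, and the KO libraries lay between the WT libraries. On the sum the log2 fold change was -0.14 (SE 0.22, adjusted p = 0.68), so the rise of Ndufs5 was not seen once the nearly identical copy printed above was counted with it.

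Ndufb7, which lies at the membrane arm's end, and Ndufaf6, an assembly factor, also rose. Ndufb7 was at 35.5, 57.5, 103.5 and 95.2 CPM, a log2 fold change of 1.09 (SE 0.25, adjusted p = 0.0211). It lies on chromosome 8, where all genes tested had a median log2 fold change above 0, and with the chromosome medians removed its log2 fold change was 0.61 and the call was lost. Ndufaf6 was at 15.3, 13.5, 28.2 and 26.2 CPM, a log2 fold change of 0.92 (SE 0.23, adjusted p = 0.0275). The KO libraries were apart from the WT libraries in both genes, which were picked by the test on these same values. The other 7 assembly factors did not pass, and ran from -0.87 to 0.72 on the log2 scale.

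Complex II, succinate dehydrogenase, links the citric acid cycle to the chain, and its 4 subunits are all nuclear. None passed the thresholds. Sdha, the flavoprotein, was nearly the same within each genotype, at 287, 287, 315 and 315 CPM, a log2 fold change of 0.14 (SE 0.17). Sdhb, the iron-sulphur subunit, was at 93.8, 113, 93.3 and 88.6 CPM, a log2 fold change of -0.19 (SE 0.18). The KO pair lay wholly above the WT pair for 3 of the 4 (75%), Sdha and the membrane anchors Sdhc and Sdhd. It lay below for Sdhb (25%), where these shares were 33.2% and 32.5% over all genes tested. Sdhc was at 87.3, 95.5, 121 and 129 CPM (log2 fold change 0.45, SE 0.17, adjusted p = 0.10), and Sdhd at 84.8, 86.6, 147 and 114 CPM (0.60, SE 0.19, adjusted p = 0.0605). By FPKM, Sdhd (86.9 on average) and Sdha (72.2) were the most abundant of the 4.

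Complex III, the cytochrome bc1 complex, was the group whose members lay most to one side. All 8 had a log2 fold change above 0, against 50.1% of all genes, except that Uqcrq lay below 0 with chromosome medians removed and Uqcrc2 without WT2 or KO1. The median was 0.54, and for 6 of the 8, or 75%, the KO pair lay wholly above the WT pair, against 33.2% of all genes. Only Uqcr10, a small subunit next to cytochrome c1, passed the thresholds (12.5% of the 8 rose, against 11.0% of all genes). It was at 93.9, 124, 204 and 172 CPM, a log2 fold change of 0.79 (SE 0.21, adjusted p = 0.0335). It was also the most abundant of the complex by FPKM, at 252 on average. Uqcrb, the next by FPKM (85.4), binds ubiquinone and was at 50.03, 77.2, 89.1 and 85.9 CPM, a log2 fold change of 0.46 (SE 0.23, adjusted p = 0.195). The core protein Uqcrc1 and the Rieske iron-sulphur protein Uqcrfs1, named here after their values were seen, had log2 fold changes of 0.60 (SE 0.21, adjusted p = 0.0716) and 0.47 (SE 0.20, adjusted p = 0.123). Uqcrc2, the partner of Uqcrc1, was at 162, 147, 173 and 149.5 CPM, with a log2 fold change of 0.06 (SE 0.18). The median of the complex was 0.32 without WT1 and 0.82 without WT2. Uqcr10 lies on chromosome 11 and lost its call with chromosome medians removed (log2 fold change 0.32), without WT1, KO1 or KO2, and on log2(FPKM + 1).

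Complex IV, cytochrome c oxidase, had 20 members tested, of which 3 rose and 1 fell, around a median of -0.01. Over all genes tested, 11.0% rose and 10.7% fell. The genes with the highest FPKM were Cox8a, at 506 FPKM on average, and Cox6a1, at 395. Cox8a was at 294, 384, 309 and 278 CPM, and Cox6a1 was at 286, 334, 259 and 241 CPM. Neither passed, with log2 fold changes of -0.21 (SE 0.20) and -0.31 (SE 0.18). Cox7a2, the widely expressed form of subunit VIIa, rose from 62.5 and 83.4 CPM to 143 and 127 CPM, a log2 fold change of 0.89 (SE 0.21, adjusted p = 0.0219). Cox7c, another small membrane subunit, rose from 138 and 180 CPM to 305 and 271 CPM, a log2 fold change of 0.85 (SE 0.20, adjusted p = 0.0237). Gm12338, identical to its coding sequence, fell from 538 and 755 reads to 221 and 296 reads (log2 fold change -1.32, SE 0.23, adjusted p = 0.00879). With the 5 matched pseudogenes added, Cox7c still had both KO libraries above both WT libraries, at 2665, 3924, 4971 and 5005 reads, but the log2 fold change was 0.59 (SE 0.20, adjusted p = 0.0711) and the call was lost.

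Cox7a2l, which joins complexes III and IV in supercomplexes, did not pass, at 152, 204, 191 and 195 CPM (log2 fold change 0.11, SE 0.20). Gm6969, its near copy, was read 1353, 1709, 8 and 7 times, and the KO level was 0.488% of WT (exact 95% interval 0.273% to 0.807%, counting error only). On the sum of the gene and its 2 matched pseudogenes the log2 fold change was -0.50 (SE 0.19, adjusted p = 0.0976), so neither count passed the test but their signs differed. The reference strain of mice is known to carry a shortened Cox7a2l, and which form these cells carry was not tested.

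**Figure D3:**
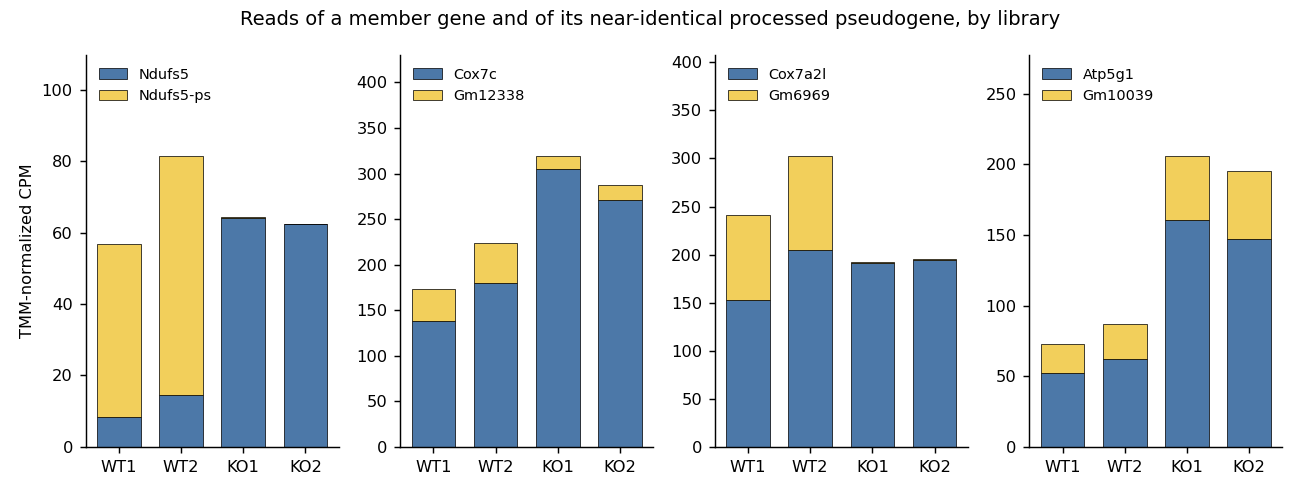
TMM-normalized CPM (vertical axes, from 0) of 4 members in blue with the most read of their processed pseudogenes stacked above in yellow, for each library. Ndufs5-ps and Gm6969 make up much of the WT bars and are at or near 0 in KO1 and KO2, Gm12338 is lower in the KO libraries, and Gm10039 is higher in them together with Atp5g1.

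In all, 99 processed pseudogenes matched 38 members at 90% identity over 60% of their length, and 63 of them had at least 1 read. Of the 23 that could be tested, 1 rose (Gm10039) and 3 fell (Ndufs5-ps, Gm12338 and Gm6969), where 11.0% and 10.7% of all genes tested did. Of the 9 members that rose, 6 have a matched pseudogene, and with those reads added Ndufs5 and Cox7c lost their calls. Processed pseudogenes as a class took 2.0%, 2.23%, 1.12% and 1.08% of all reads. Why they differed was not tested. Exons of 34 members overlap an exon of another gene in GENCODE M21, in 31 of them one on the opposite strand, and whether strand was used in counting is not given in the sources used here. Of the members called, only Cox6a2 and Atp5g2 are among these, and their neighbours Itgad and Mir688 had at most 4 and 0 reads in a library.

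Among the alternative forms of complex IV subunits, Cox6a2 fell and Cox7b2 rose, both from few reads. Cox6a2, the heart and muscle form of subunit VIa, had 54, 108, 2 and 4 reads. The log2 fold change was -4.69 (SE 0.64, adjusted p = 0.00406), and the summed KO level was 3.69% of WT (exact 95% interval 1.34% to 8.21%, counting error only). Its partner Cox6a1 was much more abundant, at 404 and 472 FPKM in the WT libraries against 5.16 and 9.01 FPKM for Cox6a2. Cox7b2, a form found mainly in testis, had 9, 6, 35 and 42 reads, a log2 fold change of 2.32 (SE 0.56, adjusted p = 0.025). Its partner Cox7b was at 148, 149, 156 and 140 CPM, with a log2 fold change of -0.01 (SE 0.17). So the 2 low forms differed between genotypes while their abundant partners did not pass the test.

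Cox7a1, the heart and muscle form of subunit VIIa, was at 6.35, 11.5, 19.6 and 18.8 CPM (log2 fold change 1.10, SE 0.33, adjusted p = 0.052), just outside the threshold. Cox8c, a testis form, had 1, 9, 14 and 32 reads, and its log2 fold change of 2.18 (SE 0.83, adjusted p = 0.0978) carried a wide error. Cox8b, the heart and muscle form of subunit VIII, had 2 reads in WT1 and 1 in each other library and was not tested. Cox6b2, which is best known from testis, was at 97.6, 141, 103 and 110 CPM, and its FPKM ran from 87.5 to 126, where that of Cox6b1 ran from 137 to 171. Neither Cox6b gene passed, with log2 fold changes of -0.17 (SE 0.22) for Cox6b2 and 0.04 (SE 0.19) for Cox6b1. Cox4i2, the lung form of subunit IV that is induced by low oxygen, was at 4.62 to 9.65 FPKM against 311 to 386 FPKM for Cox4i1, and neither passed (-0.28, SE 0.44, and -0.10, SE 0.19). Ndufa4, now counted as a complex IV subunit, had a log2 fold change of 0.18 (SE 0.18), and Ndufa4l2, its hypoxia-induced relative, was at 16.0, 25.5, 12.5 and 9.65 CPM (-0.90, SE 0.31, adjusted p = 0.0763).

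**Figure D4:**
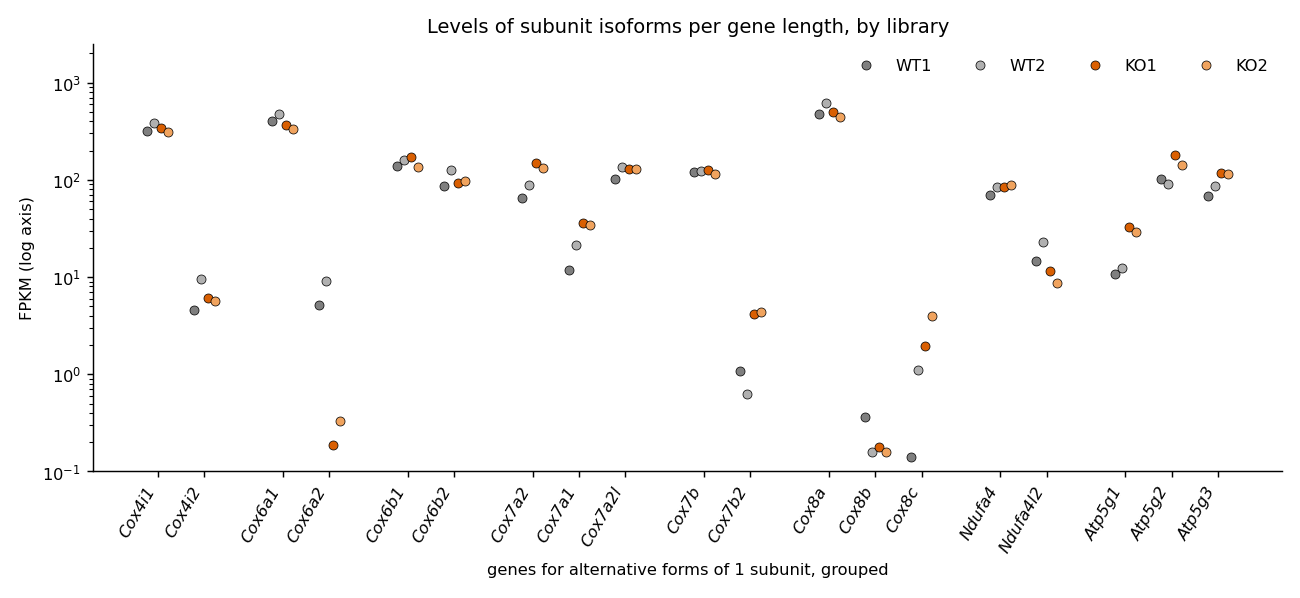
FPKM by library, on a log axis, of the genes for alternative forms of 1 subunit, grouped side by side; grey points are WT libraries and orange points KO libraries. Cox6a2 drops from 5.16 and 9.01 FPKM to 0.189 and 0.334 FPKM under a Cox6a1 of 337 to 472 FPKM, and the 3 genes for subunit c are each higher in both KO libraries.

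Complex V, the ATP synthase, had 17 members tested, of which 2 rose and 0 fell, around a median of 0.19. These shares were 11.8% and 0%, against 11.0% and 10.7% of all genes. Both called genes, Atp5g1 and Atp5g2, encode subunit c, the proton-carrying ring, and with Atp5g3 they encode the same mature protein behind different import signals. Atp5g1 was at 52.6, 62.1, 161 and 147 CPM, a log2 fold change of 1.42 (SE 0.19, adjusted p = 0.00349). Atp5g2 was at 170, 154, 301 and 243 CPM, a log2 fold change of 0.75 (SE 0.19, adjusted p = 0.0313). Atp5g3 was at 150, 191, 256 and 257 CPM, and with a log2 fold change of 0.59 (SE 0.19, adjusted p = 0.0639) it missed the threshold. In all 3 genes both KO libraries stood above both WT libraries, which held for 33.2% of all genes tested. By FPKM the order in WT cells was Atp5g2 (101 and 91.1), Atp5g3 (68.3 and 86.8) and Atp5g1 (10.6 and 12.5), and it was the same in the KO cells, where Atp5g1 reached 32.6 and 29.4 FPKM. The gene length that FPKM divides by was listed as 4912 bases for Atp5g1, 1675 for Atp5g2 and 2181 for Atp5g3. The part of these lengths in the gaps between the genes was not tested. Gm10039, a pseudogene on chromosome 11 that matches Atp5g1 at 99.8% identity, was read 313, 440, 702 and 835 times, and on the summed reads Atp5g1 kept its call (log2 fold change 1.31, SE 0.19).

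The rest of complex V did not pass. Atp5b and Atp5a1, the catalytic and partner subunits of the F1 head, were at 1805, 1766, 2210 and 2102 CPM and at 1083, 1269, 1365 and 1312 CPM. Their log2 fold changes were 0.27 (SE 0.19) and 0.19 (SE 0.19), with 95% intervals of -0.16 to 0.71 and -0.26 to 0.63. The peripheral stalk ran from -0.52 to 0.31 and the membrane accessory subunits from -0.14 to 0.35. Atp5e, the epsilon subunit of the head and named here after its values were seen, had 388 reads in WT1 against 1502, 1408 and 1217 in the others, the widest gap between WT libraries of any member tested (1.74 on the log2 scale).

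**Figure D5:**
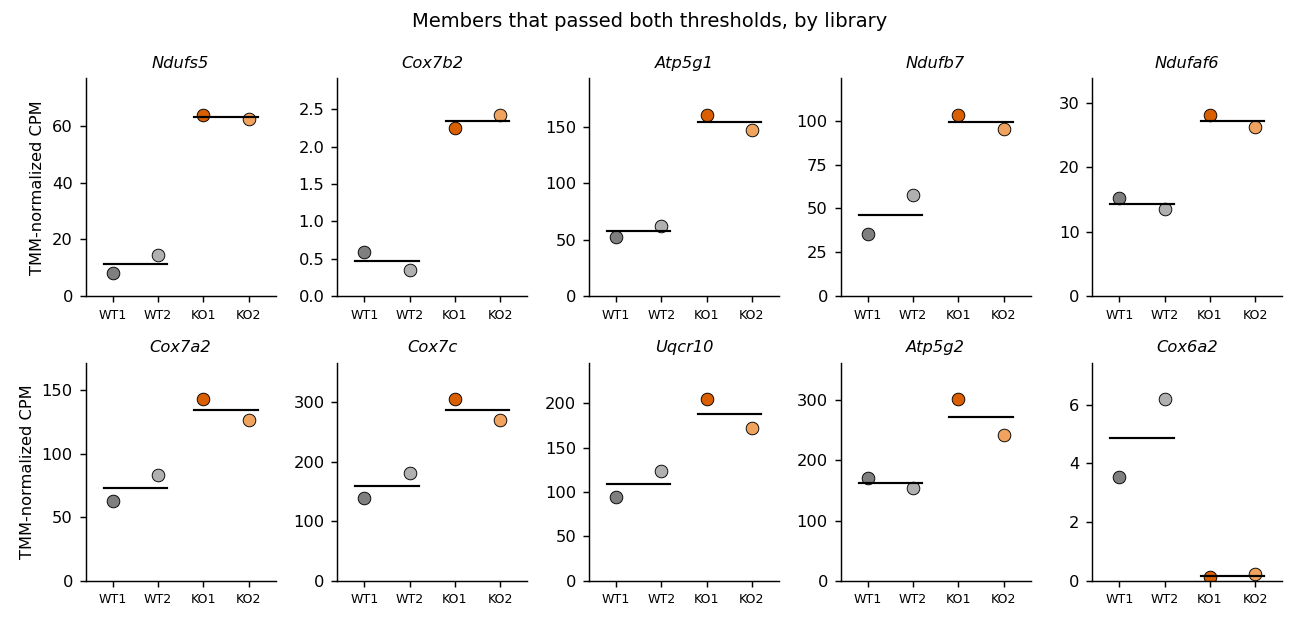
TMM-normalized CPM (vertical axes, from 0, each with its own scale) of the 10 members that passed both thresholds, with 1 point for each library and a bar at the mean of each genotype. The KO points lie apart from the WT points in all 10, above them in 9 and below them in Cox6a2, whose KO libraries were at 0.129 and 0.231 CPM. The 10 were picked by the test on these same values, so this separation is no further result. Over all genes tested the KO pair lay above the WT pair for 33.2% and below it for 32.5%.

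Of the 10 members called, 3 were on chromosomes 8 and 11. Genes on chromosomes 8 and 11 were higher as a group in both KO libraries, where 26.5% of 2434 genes tested rose, 4.56% fell and the median log2 fold change was 0.50. The 8 members on these chromosomes had a median of 0.47, and 3 of them rose, namely Atp5g1, Uqcr10 and Ndufb7. Of the 87 members tested on other chromosomes 6 rose and 1 fell, with a median of 0.13, where 8.61% of the genes rose, 11.7% fell and the median was -0.07. With the median of each chromosome removed from each KO library, Atp5g1 stayed past both thresholds at a log2 fold change of 0.96. Whether the copy number of these chromosomes differs was not tested.

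Genes around the chain were read from lists, and their shares stand beside the 11.0% of all genes that rose and the 10.7% that fell. Of 42 tested assembly factors outside the naming rule, 6 rose and 2 fell (14.3% and 4.76%), with a median log2 fold change of 0.12. Of 19 genes for cytochrome c and the synthesis of coenzyme Q and for other electron carriers, 3 rose and 1 fell (15.8% and 5.26%, median 0.04). Mitochondrial ribosomal protein genes, which make the proteins encoded by mitochondrial DNA, had 12 of 77 higher and 1 lower (15.6% and 1.3%, median 0.31). Of the 12 that rose, Mrpl12, Mrpl22, Mrpl34, Mrpl45, Mrpl55, Mrpl58, Mrps23 and Mrps24 lie on chromosomes 8 or 11 and the others elsewhere. Among the assembly factors and carriers that rose, Coa3, Coa6, Sco1, Coq9 and Dhodh lie there, while Bcs1l, Ecsit, Uqcc1 and Cyct do not. On chromosomes 8 and 11, 26.5% of all genes tested rose, and the part of this in the lists was not tested. Among 19 regulators of respiratory genes 1 rose and 2 fell (5.26% and 10.5%, median -0.12). Of the 12 tested subunits encoded in mitochondrial DNA, 1 rose and 1 fell (8.33% each, median 0.04), and their reads were 1.48%, 1.33%, 1.89% and 1.76% of the total. The higher share in the KO libraries lay in mt-Co1, a catalytic subunit of complex IV, which rose and was at 8364, 7453, 13627 and 13585 CPM (log2 fold change 0.78, adjusted p = 0.0362). The other 11 together stood at 7044, 5189, 6078 and 3629 CPM, and mt-Nd6, a membrane subunit of complex I, fell (log2 fold change -1.07, adjusted p = 0.0099). By gene, these 11 ran from 0.851 CPM (mt-Nd3 in WT1) to 1769 CPM (mt-Cytb in WT1), with mt-Co2 at 44.8, 40.2, 64.0 and 26.3 CPM. How reads that match several loci were counted is not given, and its part in the mitochondrial values was not tested.

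Promoters of 77 members, from 250 bases before the start to 50 after it, were searched on both strands for motifs known from respiratory genes, from RefSeq sequences on GRCm38.p6. The NRF1 motif (GCGC, any base, TGCGC) was in 18 of them, or 23.4%, against 4.82% of 27025 promoters. The YY1 motif (AA, any base, ATGGCG, any base, C) was in 8, or 10.4%, against 1.6%. Of these 8, 7 were of complex I, as were 40 of the 77 promoters searched. The ERR motif TNAAGGTCA was in 3, or 3.90%, against 1.24%, the ETS motif CCGGAAGT in 5, or 6.49%, against 3.99%, and the GC box GGGCGG, which can overlap the others, in 35, or 45.5%, against 35.9%. Of the members that rose, Ndufs5 and Atp5g2 held the NRF1 motif, while Atp5g1, Ndufb7, Uqcr10 and Cox7c held none of the 5. Cox7a2 and Cox7b2 held only the GC box, and the promoter of Ndufaf6 was not among those searched. Atp5g3 held the NRF1 motif after its start and the ERR motif before it, which is in capitals in its 250 upstream bases (chr2:73911327-73911576, minus strand, GRCm38.p6).
Atp5g3: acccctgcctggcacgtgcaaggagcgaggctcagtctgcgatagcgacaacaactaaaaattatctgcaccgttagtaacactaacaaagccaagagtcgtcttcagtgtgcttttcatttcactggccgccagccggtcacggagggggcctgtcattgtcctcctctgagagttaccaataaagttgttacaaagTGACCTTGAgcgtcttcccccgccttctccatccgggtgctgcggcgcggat
A match describes the letters only, and binding was not measured in these libraries.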

How the data were processed

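RNA-seq counts per gene of 4 libraries, 2 of WT and 2 of Npac KO E14 cells, were analysed. The authors sequenced paired-end reads and deposited raw read counts without normalization, together with FPKM values made by the authors from the same counts and the listed gene length. The submitters' processing notes name CASAVA, HISAT2 2.0.5, featureCounts 1.5.0-p3 and mm10. Only 2.83% of the genes shared with GENCODE M21 (GRCm38) had the same start and end in the deposited table, so its positions are not on that build, and all coordinates printed are from GENCODE or RefSeq on GRCm38. Whether strand was used, and how reads that match several loci were treated, are not given in the sources used here.

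The counts were tested with edgeR 4.0.16 in R 4.3.3 (TMM normalization, filterByExpr, quasi-likelihood test, KO against WT with no covariate) over 18157 genes, with calls made where the p adjusted by Benjamini-Hochberg was under 0.05 and the change exceeded 1.5-fold. CPM are TMM-normalized; log2 fold changes, standard errors (SE) and 95% intervals come from the fit, with 2 libraries per genotype. An exact permutation test of 2 against 2 libraries cannot go below p = 0.333, so none was used. Totals of 15850805 to 16965120 reads set the counting precision, and the common biological coefficient of variation was 0.235. The test was also run on simulated counts with the same spread for every gene, smaller than in these data, which cannot show its accuracy here. Levels of different members were compared by FPKM only, which rests on the listed gene length. DESeq2 1.42.0 and limma 3.58.1, on log2(FPKM + 1), were alternatives, beside other normalizations and filters, a replicate block, chromosome medians removed and each library left out. Processed pseudogenes were matched with blastn 2.17.0+ to GENCODE M21 transcripts.

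The members, lists and named genes were chosen with earlier results of these data known. The named genes are the members called, the 2 subunits with the highest FPKM in each complex, the alternative subunit forms, Ndufs5, Cox7c and the 4 Sdh genes; a few others are marked or serve as partners. Of the 97 members, Cox8b and the second Atp5o row were not tested for lack of reads.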

Additional observations from a re-analysis of the deposited data

How the results depend on the processing

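The count of members that rose, 9, was 14 with edgeR's likelihood-ratio test and 17 with no filter on low counts, where 14.6% and 8.76% of all genes rose, and 2 to 27 with each library left out: 8 without WT1, 27 without WT2, 2 without KO1 and 2 without KO2, where 14.8%, 19.1%, 3.54% and 3.7% of all genes rose. The count that fell, 1, was 3 with DESeq2, 4 with the likelihood-ratio test, 2 on log2(FPKM + 1), 4 with no filter, 2 over protein-coding genes and 0 with at least 10 reads in every library, where Cox6a2 was not tested; over all genes the share that fell was 8.56% to 14.5% in these. It was 1 to 13 with each library left out, with 13 without WT1 and 2 without WT2, where 15.4% and 18.2% of all genes fell. With the replicate number as a block, 18 rose and 4 fell, where 17.2% and 16.5% of all genes did. Nothing in the labels says that the numbers pair the libraries (correlation of deviations 0.345), so this value is given only here. Of the medians, that of complex I ran from -0.14 (without WT1) to 0.20, that of complex III from 0.32 (without WT1) through 0.40 (without KO1) to 0.82 (without WT2), and that of complex V from 0.019 (without WT1) to 0.29. With pseudogenes added, the log2 fold change of Ndufs5 was -0.14 and Cox7c lost its call. Atp5g1 kept its call under all 16 alternatives and Cox6a2 under the 15 that tested it. Leaving out KO1 or KO2 ended the calls of Atp5g2, Cox7a2, Cox7b2, Cox7c, Ndufaf6, Ndufb7 and Uqcr10, with log2 fold changes of 0.57 to 2.36 and adjusted p of 0.0771 to 0.323 in edgeR fits where the lone KO library is assumed to vary like the WT pair. Apart from the alternatives that removed data, the cause of these shifts was not tested. With 2 libraries per genotype and a coefficient of variation of 0.235, changes under 1.5-fold could be told from equality for few members.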
